A study of Bos taurus with 32 samples.

Results

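Genes for translation factors and aminoacyl-tRNA synthetases were followed in the liver of dairy cows around calving. A gene was included when its annotated symbol began with EIF1 to EIF6, EEF1 or EEF2, or ended in ARS1 or ARS2 after 1 to 4 letters. EPRS1, the cytosolic glutamyl-prolyl-tRNA synthetase, was added by name. These rules gave 79 of the 9155 genes with a probe set of 1 symbol. They comprised 33 initiation factors, 7 regulators of initiation and related genes, 7 genes classed by symbol as elongation factors, 3 modifiers of elongation factors, 16 cytosolic synthetases and 13 mitochondrial synthetases. Each gene was represented by its probe set (a group of probes for 1 transcript) with the highest mean over all arrays, and no member was left out for a low value. A further 2 probe sets annotated to both EIF4EBP3 and ANKHD1 were not used.

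Liver biopsies from Ayrshire cows were measured on 32 Affymetrix bovine arrays. Dietary energy had been either controlled (CON) or high (HIGH) over the 6 weeks before the predicted calving. Biopsies were dated -8 d, counted from the predicted calving, and 1 d and 9 d, counted from the actual calving. There were 5 arrays for CON -8 d, 5 for HIGH -8 d, 4 for CON 1 d, 6 for HIGH 1 d, 6 for CON 9 d and 6 for HIGH 9 d, from 12 cows (6 per diet). The design text speaks of 16 cows. Of the 12, 8 cows had arrays on all 3 days. All cows calved between the first and second biopsy, so a comparison of days includes calving, onset of lactation and any change of feeding with it. Ages, parities and diets after calving are not given in the sources used here.

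Translation begins when eIF4E, eIF4G and the helicase eIF4A, together the eIF4F complex, bind the cap of an mRNA and recruit the small ribosomal subunit, which carries eIF1, eIF1A, eIF3 and the initiator tRNA bound to eIF2. The elongation factors eEF1A and eEF2 then deliver aminoacyl-tRNAs and move the ribosome along the mRNA. Aminoacyl-tRNA synthetases charge each tRNA with its amino acid, with separate genes for most cytosolic and mitochondrial enzymes. In liver, which makes most plasma proteins, this machinery is controlled by amino acids, insulin and stress kinases that phosphorylate eIF2.

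Values are log2 RMA values, so a difference of 1 is a doubling, and they were compared only within a probe set. Array medians lay between 5.87 and 5.935. The mean of 10 hepatocyte markers was between 13.65 and 13.94 on every array. At 1 d against -8 d, however, 3 of these markers rose and 6 fell, from CYP2E1 at -0.52 to FGB at 0.88. Over all genes 16.5% rose and 12.3% fell in that comparison. The array of CON 9 d replicate 6 stood apart in a single RNA quality measure: its 3′ minus 5′ difference for actin was 3.87, against 2.2 or less on the other 31 arrays. Without that array, the 9 d against -8 d comparison called 3 members higher and 3 lower, in place of 6 and 5, while the counts of 9 d against 1 d were 9 and 14, in place of 11 and 14. The drop at 9 d against -8 d was not particular to that array. Leaving out 1 array lowered the rises to 3 for 8 of the 32 arrays, and the falls to 2 or 3 for 8 of them. Changes are log2 fold changes averaged over the diets unless a diet is named. They come from limma with cow as a random block, and adjusted p-values are Benjamini-Hochberg values over 24016 probe sets. In this text rose and fell mean adjusted p under 0.05. In bulk liver RNA, fewer cells of a type and less RNA per cell cannot be told apart.

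Translation genes moved in both directions across calving. Between -8 d and 1 d, 16 of 79 members rose and 13 fell. Over all probe sets 11.5% rose and 11.6% fell, and over the 9155 genes 16.5% rose and 12.3% fell, while the members' shares were 20.3% and 16.5%. The median change was 0.03 over the members and 0.00 over all genes. Between 1 d and 9 d, 11 members rose and 14 fell (13.9% and 17.7%), beside 6.11% and 6.99% of all probe sets and 7.44% and 10% of genes. Their median change was -0.03, against -0.01 over all genes. Between -8 d and 9 d, 6 members rose and 5 fell (7.59% and 6.33%), beside 5.18% and 4.25% of all probe sets and 7.79% and 5.08% of genes. The median change was again -0.03 over the members and -0.01 over all genes. The comparisons share arrays, so a member high at 1 d enters the first comparison with one sign and the second with the other. The sign of the change was the same in both diets for 65, 69 and 59 of the 79 members in these 3 comparisons, in the order given. Leaving out CON 1 d replicate 1 or CON 1 d replicate 4 lowered the number that rose at 1 d from 16 to 10. Leaving out CON 1 d replicate 1 also lowered the number that fell from 1 d to 9 d from 14 to 9.

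The 10 genes of the eIF4 group, put together by symbol, held the largest rises among the initiation factors. The group includes genes that bind the cap or unwind the mRNA, but also EIF4A3, a helicase of the exon junction complex. At 1 d against -8 d, 5 of the 10 rose, EIF4A3 among them, and 2 fell. Over all genes 16.5% rose and 12.3% fell. EIF4G1, the scaffold of the cap-binding complex, had a lowest, median and highest value of 8.86, 9.30 and 9.77 on the 10 arrays of -8 d, 9.67, 9.87 and 10.06 on the 10 arrays of 1 d, and 9.37, 9.62 and 9.86 on the 12 arrays of 9 d. Only the upper end of -8 d reached into the values of 1 d. EIF4G1 rose by 0.53 (SE 0.07, adjusted p = 1.38e-06), was higher in 8 of 8 cows, and then fell by 0.25 to 9 d (SE 0.06, adjusted p = 0.00748; lower in 10 of 10 cows). It was still 0.27 above -8 d at 9 d (SE 0.06, adjusted p = 0.00555), although this last call was lost in the cows with all 3 days (adjusted p = 0.0869). EIF4G3, a second scaffold gene, rose by 0.36 (SE 0.11, adjusted p = 0.0211), and its other probe set rose by 0.49. The EIF4G3 call was lost with cow ignored and without CON 1 d replicate 4 (adjusted p up to 0.0688). EIF4E, the cap-binding protein, rose by 0.20 (SE 0.06, adjusted p = 0.0247), from a median of 9.39 to 9.59. The array also carries control probe sets for this mRNA, and all read higher at 1 d in at least 7 of 8 cows. The differences from -8 d were 0.22 at the 3′ end, 0.31 in the middle and 0.40 at the 5′ end. The call for EIF4E was lost without CON -8 d replicate 3, HIGH -8 d replicate 1 or CON 1 d replicate 3, with cow ignored and with array weights, at adjusted p of up to 0.063.

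The eIF4A helicases, paralogs that unwind structure ahead of the small ribosomal subunit, moved in opposite directions. EIF4A1 ran from 9.19 to 9.62 at -8 d (median 9.35), from 9.59 to 10.03 at 1 d (median 9.79) and from 9.47 to 9.87 at 9 d (median 9.68). EIF4A2, which is brighter on these arrays, ran from 12.70 to 12.90 at -8 d (median 12.84), from 12.06 to 12.66 at 1 d (median 12.37) and from 12.45 to 12.91 at 9 d (median 12.63). The ranges of -8 d and 1 d did not overlap for EIF4A2 and met only at their ends for EIF4A1. EIF4A1 rose by 0.41 (SE 0.06, adjusted p = 4.03e-06; 8 of 8 cows) and EIF4A2 fell by 0.44 (SE 0.06, adjusted p = 3.81e-06; 8 of 8 cows). By 9 d EIF4A2 had risen again by 0.25 (adjusted p = 0.00332), whereas EIF4A1 changed by -0.13 from 1 d (adjusted p = 0.121) and stood 0.28 above -8 d (adjusted p = 0.000739; 10 of 10 cows). EIF4A2 did not fully return, as it was also called lower at 9 d than at -8 d (lower in 9 of 10 cows). That EIF4A2 call was lost with cow ignored, in cows with all 3 days and when any 1 of 9 arrays was left out (adjusted p up to 0.216). The opposite signs appeared in each diet: at 1 d EIF4A1 rose by 0.39 in CON and 0.44 in HIGH, and EIF4A2 fell by 0.38 and 0.49. EIF4B, an RNA-binding partner of these helicases, followed EIF4A2, with a fall of 0.45 (SE 0.12, adjusted p = 0.00497) and a rise of 0.43 to 9 d (SE 0.11, adjusted p = 0.00869). EIF4A3, the related helicase of the exon junction complex, rose by 0.14 (adjusted p = 0.0196), while its other probe set changed by 0.04 without passing, and the EIF4A3 call was lost when its probe sets were averaged, in cows with all 3 days and without CON 1 d replicate 1 (adjusted p up to 0.0934).

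**Figure D1:**
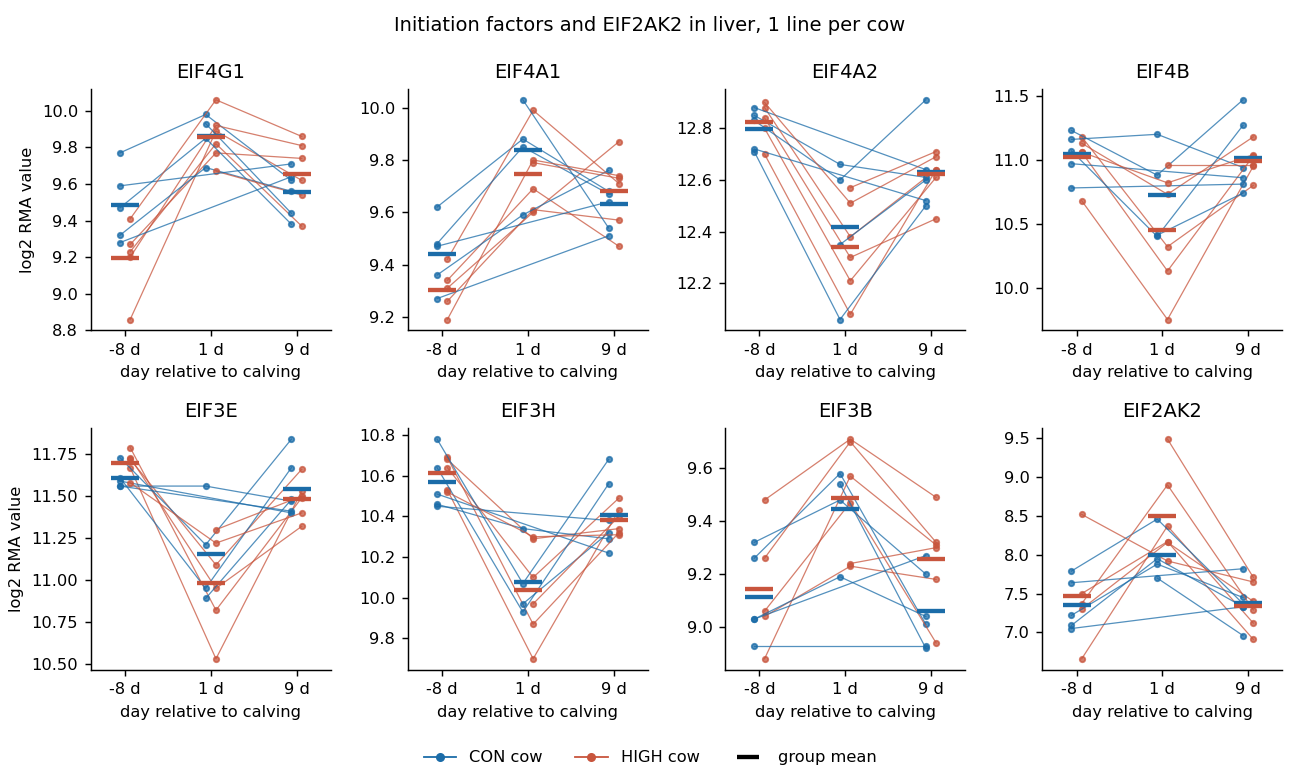
Log2 RMA values (y axis) of EIF4G1, EIF4A1, EIF4A2, EIF4B, EIF3E, EIF3H, EIF3B and EIF2AK2 by day relative to calving (x axis), with 1 line per cow, CON in blue and HIGH in red, and horizontal marks for the group means. Each panel has its own y axis. EIF4G1, EIF4A1, EIF3B and EIF2AK2 peak at 1 d, whereas EIF4A2, EIF4B, EIF3E and EIF3H dip at 1 d and rise again by 9 d, EIF4A2 to below its level at -8 d.

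eIF3 is the largest initiation factor and holds the small ribosomal subunit ready for mRNA. Of 12 measured eIF3 genes, 1 rose and 5 fell at 1 d, when 16.5% of all genes rose and 12.3% fell. EIF3E had a lowest, median and highest value of 11.56, 11.64 and 11.79 at -8 d, 10.53, 11.02 and 11.56 at 1 d, and 11.32, 11.49 and 11.84 at 9 d. A single CON array at 1 d, at 11.56, reached the lower end of -8 d, and the other 9 lay at 11.30 or less. EIF3E fell by 0.59 (SE 0.08, adjusted p = 2.15e-06), being lower in 7 of 8 cows and equal in the other, and rose by 0.45 to 9 d (SE 0.08, adjusted p = 9.6e-05; 9 of 10 cows). EIF3H ran from 10.45 to 10.78 at -8 d (median 10.59) and from 9.70 to 10.34 at 1 d (median 10.02), without overlap. It fell by 0.54 (SE 0.07, adjusted p = 1.12e-06; 8 of 8 cows) and rose by 0.34 to 9 d (adjusted p = 0.000442). The other falls were EIF3M (-0.38), EIF3D (-0.30) and EIF3G (-0.16), and EIF3M and EIF3D rose again by 0.34 and 0.21. The EIF3G call was lost when any 1 of 4 arrays was left out (adjusted p up to 0.115). The rise of EIF3D to 9 d was lost without CON 1 d replicate 3 (adjusted p = 0.0626).

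The eIF3 genes did not move as a block. EIF3B, a core scaffold subunit, went the other way: its median was 9.05 at -8 d, 9.51 at 1 d and 9.19 at 9 d, a rise of 0.34 (SE 0.08, adjusted p = 0.00139; 8 of 8 cows) followed by a fall of 0.30 (adjusted p = 0.00387; lower in 9 of 10 cows). A second EIF3B probe set gave a rise of 0.31 and a fall of 0.31, both past the threshold. EIF3A (0.14), EIF3I (0.15), EIF3J (0.14), EIF3K (-0.11), EIF3L (-0.10) and EIF3CL (-0.08) did not pass at 1 d. EIF3CL is annotated as a close copy of EIF3C, so its probe set may read both. At 9 d against -8 d, EIF3K alone among the eIF3 genes passed, with a fall of 0.15 (adjusted p = 0.0451) that was lost when any of 18 single arrays was left out. The 3 subunits with the largest falls, EIF3E, EIF3H and EIF3M, kept their calls at 1 d in each of the 8 alternative settings and without each of the 32 arrays.

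The remaining initiation factors choose the start codon, carry the initiator tRNA or recycle eIF2. EIF1AX, which encodes the start-site factor eIF1A, rose by 0.21 (SE 0.05, adjusted p = 0.00106) and fell by 0.22 (SE 0.04, adjusted p = 0.000636; lower in 10 of 10 cows), with medians of 10.92, 11.15 and 10.92 on the 3 days. EIF1, its partner in start-site choice, fell by 0.14 at 1 d (adjusted p = 0.00581) and was still 0.15 lower at 9 d (adjusted p = 0.00288; lower in 10 of 10 cows). A second EIF1 probe set changed by -0.02 and -0.10 and passed in neither comparison, and both EIF1 calls were lost when its probe sets were averaged, that at 1 d also in cows with all 3 days (adjusted p up to 0.207 at 1 d and 0.0529 at 9 d). The subunits of eIF2 diverged. EIF2S1, the alpha subunit that stress kinases phosphorylate, rose by 0.21 (SE 0.06, adjusted p = 0.0164), from a median of 9.20 to 9.40, and EIF2S3, the gamma subunit that binds the initiator tRNA, fell by 0.29 (SE 0.08, adjusted p = 0.00918), from 10.91 to 10.64. The EIF2S1 call was lost without CON 1 d replicate 1 or 4 and in cows with all 3 days, at adjusted p of up to 0.141. Among the subunits of eIF2B, the exchange factor that reloads eIF2 with GTP, EIF2B4 rose by 0.16 at 1 d (adjusted p = 0.0336) and EIF2B2 by 0.20 at 9 d against -8 d (adjusted p = 0.0385). EIF2B4 lost its call with cow as a fixed block, in cows with all 3 days and when any 1 of 8 arrays was left out (adjusted p up to 0.356), and EIF2B2 with cow ignored, in cows with all 3 days and when any 1 of 12 arrays was left out (adjusted p up to 0.191). EIF1B (-0.10), EIF5 (0.06), EIF6 (0.06), EIF2B1 (0.05), EIF2B3 (0.14), EIF4E2 (0.01), EIF4E3 (0.19) and EIF4H (-0.02) did not pass at 1 d. Over the 33 initiation factors 9 rose and 9 fell at 1 d (27.3% each, beside 16.5% and 12.3% of all genes), and the mean change was 0.00.

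**Figure D2:**
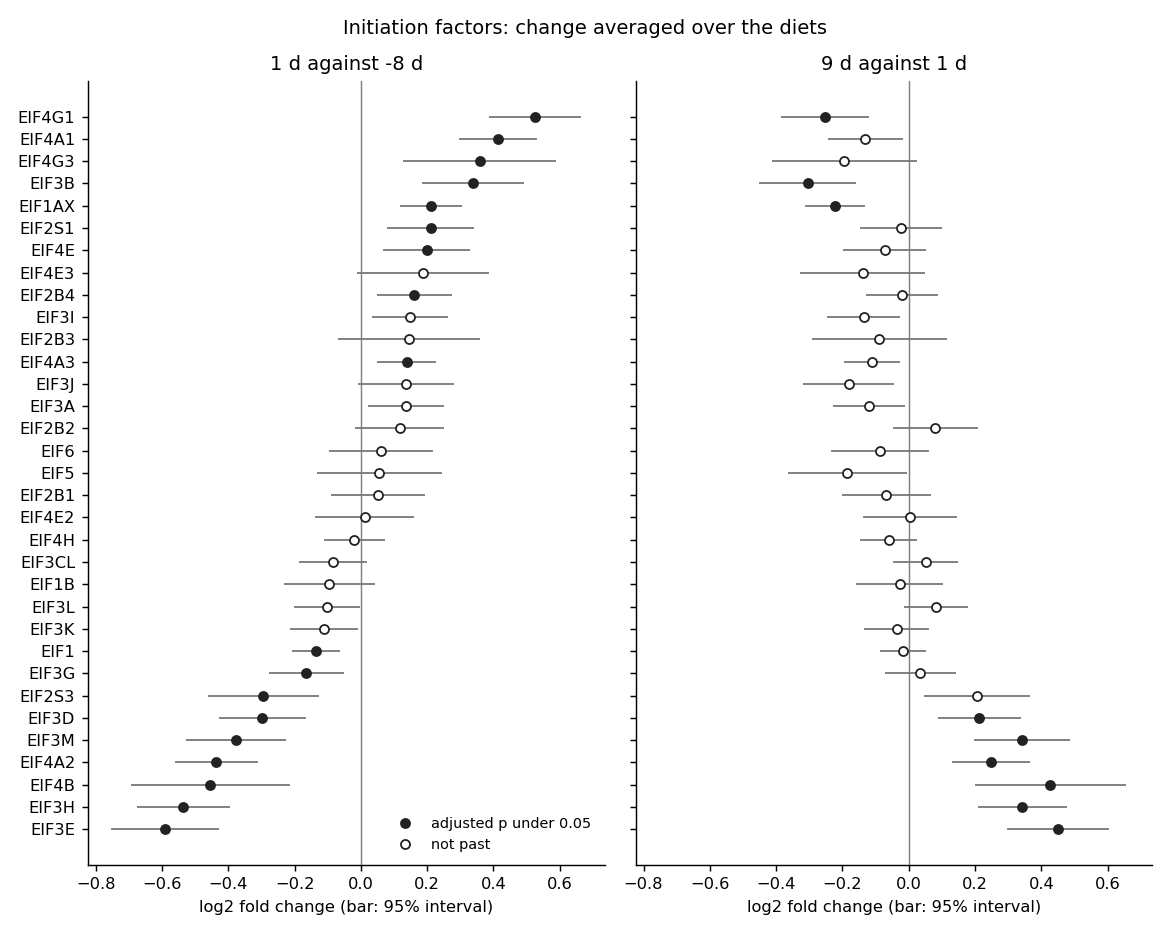
Log2 fold changes (x axis) of the 33 initiation factors for 1 d against -8 d (left) and 9 d against 1 d (right), averaged over the diets, with bars for the 95% interval of the fit and filled points for adjusted p under 0.05. Genes are ordered by the left panel, from EIF4G1 at 0.53 to EIF3E at -0.59; the panels share the 1 d arrays, so opposite signs in them are not independent.

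Among the regulators of initiation, EIF2AK2 had the largest change of all 79 members. It encodes PKR, an interferon-induced kinase that is activated by double-stranded RNA and phosphorylates eIF2. At -8 d the CON arrays read 7.05, 7.09, 7.22, 7.64 and 7.79, and the HIGH arrays 6.66, 7.30, 7.37, 7.50 and 8.52. At 1 d the 4 CON arrays read 7.70, 7.88, 7.95 and 8.46, and the 6 HIGH arrays ran from 7.92 to 9.49. Apart from 1 HIGH array of -8 d, the groups overlapped little. EIF2AK2 rose by 0.83 (SE 0.18, adjusted p = 0.000715; 7 of 8 cows) and fell by 0.89 to 9 d (SE 0.17, adjusted p = 0.000344; lower in 10 of 10 cows). A second EIF2AK2 probe set, dimmer than the first, gave -0.13 and 0.22 and passed in neither comparison. The other eIF2 kinases on the array did not pass at 1 d: EIF2AK1, the heme-regulated kinase, changed by -0.12 (adjusted p = 0.153) and EIF2AK3, the endoplasmic reticulum stress kinase PERK, by -0.04 (SE 0.15, adjusted p = 0.893). A second probe set of EIF2AK1 fell by 0.19 (adjusted p = 0.0268). EIF4EBP1, a repressor of eIF4E, changed by 0.03 (SE 0.09, adjusted p = 0.835). EIF2A, an alternative initiator tRNA carrier, rose by 0.33 (SE 0.09, adjusted p = 0.00865), with a change of 0.01 in its second probe set, and EIF1AD, an eIF1A domain protein, rose by 0.16 (adjusted p = 0.0417), a call lost with cow ignored, with array weights and when any 1 of 11 arrays was left out (adjusted p up to 0.107). EIF2D, which can deliver initiator tRNA without eIF2, changed by -0.03.

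No gene of the elongation class passed at 1 d against -8 d through its brightest probe set. Over all genes 16.5% rose and 12.3% fell in that comparison. In this small class 2 of 7 had an unadjusted p under 0.05, a count given without the share of all genes. EEF2, the translocase, read a median of 12.66 at -8 d, 12.56 at 1 d and 12.63 at 9 d and changed by -0.13 at 1 d (SE 0.05, adjusted p = 0.0803). With cow as a fixed block the same change had an adjusted p of 0.0469, and after the filter on low values 0.0396. EEF2K, the kinase that inhibits EEF2, changed by 0.11 (adjusted p = 0.211). EEF1D, a subunit of the exchange factor for eEF1A, fell by 0.25 between -8 d and 9 d (SE 0.07, adjusted p = 0.0263; lower in 10 of 10 cows), and EEF1G, another of its subunits, fell by 0.13 between 1 d and 9 d (adjusted p = 0.0319). The EEF1G call was lost with cow as a fixed block, in cows with all 3 days and when any 1 of 9 arrays was left out (adjusted p up to 0.38), and the EEF1D call in those cows and without CON -8 d replicate 2 or CON 9 d replicate 5 (adjusted p up to 0.11). EEF1AKMT3, a methyltransferase acting on eEF1A, rose by 0.21 between 1 d and 9 d (adjusted p = 0.0363), a call lost with cow as a fixed block, with cow ignored, with array weights and when any 1 of 11 arrays was left out (adjusted p up to 0.0946). EEF1B2 (-0.11) and EEF1E1 (0.08) did not pass at 1 d. EEF1E1 is in this class by its symbol alone, as its protein is a partner of the synthetases and not an elongation factor. EEF1A2, the form of muscle and neurons, stayed between 3.21 and 3.77 on every array, at the 13.3rd percentile of probe set means, and EEF2KMT, a methyltransferase of EEF2, lay at the 12.2nd percentile.

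The result for eEF1A, the carrier of aminoacyl-tRNA, depended on the probe set. The brighter EEF1A1 probe set lies at the 99.9th percentile of all means. It read 14.40 ± 0.05 before calving (SD, n = 10), 14.33 ± 0.06 on day 1 after calving (n = 10) and 14.43 ± 0.07 on day 9 (n = 12). Its change was -0.07 at 1 d (SE 0.03, adjusted p = 0.0849) and it rose by 0.10 to 9 d (SE 0.03, adjusted p = 0.0207). That call was lost in cows with all 3 days and without CON 1 d replicate 2 or 3 (up to 0.0699). The other EEF1A1 probe set read 12.76 ± 0.07, 12.25 ± 0.24 and 12.66 ± 0.09 on the same days. Through it EEF1A1 fell by 0.51 (SE 0.06, adjusted p = 6.83e-07) and rose by 0.41 (SE 0.06, adjusted p = 1.53e-05).

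Control probe sets for this mRNA lie along the transcript. The 3′ control read 12.73, 12.28 and 12.66 on the 3 days and was lower at 1 d in 8 of 8 cows, the middle control read 8.54, 8.27 and 8.64, and the 5′ control read 13.42, 13.35 and 13.47. Between -8 d and 1 d the difference was thus -0.45 at the 3′ end and -0.06 at the 5′ end. These controls were not part of the fit. The mean 3′ minus 5′ difference was -0.68 at -8 d, -1.07 at 1 d and -0.81 at 9 d for this mRNA. The same difference was 0.54, 0.53 and 0.58 for GAPDH and 1.23, 1.19 and 1.25 for cyclophilin. It was 1.60, 1.61 and 1.78 for actin and 2.79, 2.61 and 2.64 for eIF-4E, the latter also lower at 1 d than at -8 d. What sets the probe sets of EEF1A1 apart was not tested.

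**Figure D3:**
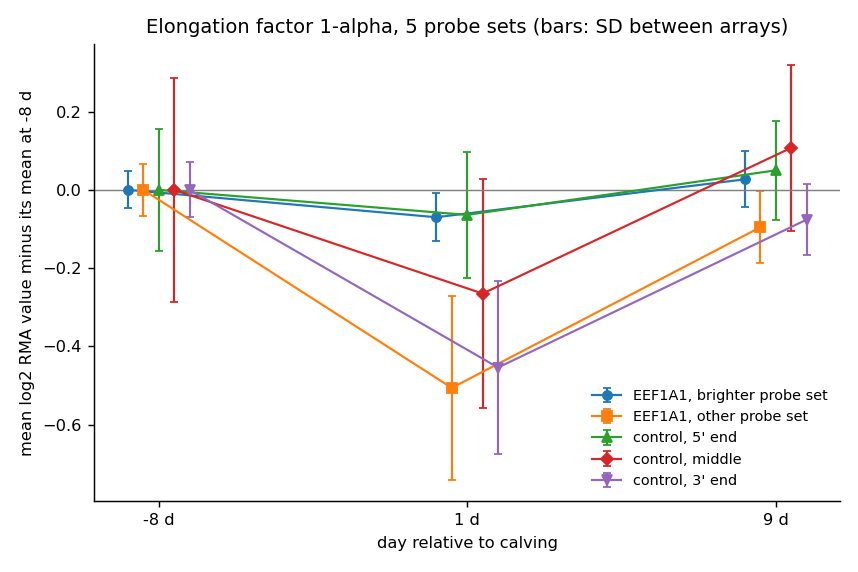
Mean log2 RMA value minus the mean at -8 d (y axis) for 5 probe sets of elongation factor 1-alpha on the 3 biopsy days (x axis), with bars for the SD between arrays (n = 10, 10 and 12). At 1 d the second EEF1A1 probe set and the 3′ control lie 0.51 and 0.45 below -8 d, while the brighter EEF1A1 probe set and the 5′ control stay within 0.07 of -8 d.

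The synthetases are given by compartment. At 1 d against -8 d 16.5% of all genes rose and 12.3% fell. Of 16 cytosolic synthetases 4 (25%) rose and none fell by the limma test (7 and 1 at an unadjusted p under 0.05), and of 13 mitochondrial synthetases none rose and 4 (30.8%) fell (0 and 4 unadjusted). The median change was 0.16 for the cytosolic genes, -0.10 for the mitochondrial genes and 0.00 for all genes. From 1 d to 9 d, when 7.44% of all genes rose and 10% fell, 8 cytosolic synthetases fell and none rose (10 and 0 unadjusted), and 3 mitochondrial synthetases rose and none fell (4 and 1 unadjusted). No cytosolic synthetase passed at 9 d against -8 d (1 higher and 3 lower unadjusted), with a median change of -0.05. In that comparison 2 mitochondrial synthetases rose and 1 fell (15.4% and 7.69%, beside 7.79% and 5.08% of all genes). The difference between the classes was described and not tested, and the unadjusted counts have no share of all genes beside them. Without KARS1 and GARS1, which serve both compartments, the mean change of the cytosolic class at 1 d was 0.16, against 0.15 with them.

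Among the cytosolic enzymes, GARS1, which charges glycine tRNA in the cytosol and, like KARS1, also in mitochondria, had the largest change. At -8 d its CON arrays read 7.93, 7.94, 8.03, 8.36 and 8.64 and its HIGH arrays 7.70, 7.93, 7.95, 8.01 and 8.14. At 1 d the CON arrays read 7.80, 7.92, 8.91 and 9.05, and the HIGH arrays ran from 7.91 to 9.75 with a median of 8.58. At 9 d all 12 arrays lay between 7.66 and 8.10. The values of GARS1 at 1 d were thus widely spread, with some arrays at the level of the other days and others well above it. It rose by 0.49 (SE 0.16, adjusted p = 0.0262; 6 of 8 cows) and fell by 0.64 to 9 d (SE 0.15, adjusted p = 0.0043; lower in 8 of 10 cows).

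MARS1 (methionine) rose by 0.36 (SE 0.13, adjusted p = 0.0364), TARS1 (threonine) by 0.32 (SE 0.09, adjusted p = 0.0107) and YARS1 (tyrosine) by 0.26 (SE 0.09, adjusted p = 0.0469). TARS1 kept this call in each of the 8 other settings and without each array. YARS1 lost it without 24 of the 32 arrays, with adjusted p up to 0.154, MARS1 without 10 and GARS1 without CON -8 d replicate 3, CON 1 d replicate 1 or CON 1 d replicate 4 (up to 0.0991). YARS1 and MARS1 also each lost it in 4 of the 8 other settings, and GARS1 in the cows with all 3 days. For MARS1 these settings included the averaging of its probe sets. A second MARS1 probe set changed by -0.04. The falls to 9 d were MARS1 (-0.56), YARS1 (-0.45), SARS1 (-0.41; lower in 10 of 10 cows), IARS1 (-0.38; lower in 10 of 10 cows), TARS1 (-0.31), AARS1 (-0.26) and QARS1 (-0.21). They charge methionine, tyrosine, serine, isoleucine, threonine, alanine and glutamine. GARS1, MARS1, YARS1, SARS1 and IARS1 kept these falls without each of the 32 arrays, although in the cows with all 3 days GARS1 (adjusted p = 0.0678) and IARS1 (adjusted p = 0.051) missed the threshold. Without CON 1 d replicate 1 the count of cytosolic synthetases that fell to 9 d was 5 in place of 8. At 1 d the count that rose was between 1 and 7 when 1 array was left out: it was 1 without CON -8 d replicate 3, CON 1 d replicate 1 or CON 1 d replicate 4, and 7 without CON 1 d replicate 2.

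Not all cytosolic enzymes took part. HARS1 changed by 0.01 (SE 0.04), RARS1 by 0.00 (SE 0.06), LARS1 by 0.07 (SE 0.05), NARS1 by 0.06 (SE 0.06) and QARS1 by 0.06 (SE 0.06) at 1 d. EPRS1 (0.18), AARS1 (0.15), SARS1 (0.20), IARS1 (0.24) and CARS1 (0.26) did not pass. KARS1, which charges lysine tRNA in both compartments, had the lowest change of the class, -0.24 (SE 0.10, adjusted p = 0.092; lower in 7 of 8 cows). With cow as a fixed block KARS1 fell at 1 d (adjusted p = 0.00799) and rose from 1 d to 9 d (adjusted p = 0.0219), and with the filter on low values it fell at 1 d (adjusted p = 0.0447). WARS1 (tryptophan), an interferon-inducible gene, changed by 0.01 through its brightest probe set, while another of its probe sets rose by 0.24 (adjusted p = 0.0315) and fell by 0.25 to 9 d (adjusted p = 0.0327).

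Of the mitochondrial enzymes, HARS2 (histidine) moved most firmly. Its lowest, median and highest values were 8.29, 8.39 and 8.46 at -8 d, 7.87, 8.15 and 8.48 at 1 d, and 8.13, 8.37 and 8.54 at 9 d. At 1 d, 9 of the 10 arrays lay below the whole range of -8 d. HARS2 fell by 0.22 (SE 0.05, adjusted p = 0.0023; 7 of 8 cows) and rose by 0.19 to 9 d (SE 0.05, adjusted p = 0.00737; 0.102 in the cows with all 3 days). CARS2 (cysteine) fell by 0.22 (adjusted p = 0.0336), RARS2 (arginine) by 0.17 (adjusted p = 0.0268) and AARS2 (alanine) by 0.14 (adjusted p = 0.0243). Second probe sets of CARS2 and AARS2 gave 0.12 and 0.12 without passing, and the calls of both genes were lost when all probe sets of a gene were averaged. The RARS2 call was lost with cow ignored and without CON -8 d replicate 4, CON 1 d replicate 1 or CON 1 d replicate 2, at adjusted p of up to 0.0614.

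NARS2 (asparagine) showed another course. Its median was 8.31 at -8 d, 8.38 at 1 d and 8.63 at 9 d, and it was 0.31 above -8 d at 9 d (SE 0.07, adjusted p = 0.00221; higher in 10 of 10 cows). MARS2 rose by 0.18 over the same interval (adjusted p = 0.0429) and IARS2 by 0.12 from 1 d to 9 d (adjusted p = 0.0479). These calls were lost without 15 and 22 of the 32 arrays, and in 3 and 5 of the 8 other settings. LARS2 fell by 0.32 between -8 d and 9 d (SE 0.07, adjusted p = 0.00229), but its probe set is dim, with a mean at the 16.4th percentile, and it was not tested under the filter on low values. SARS2 (-0.10), WARS2 (-0.21), VARS2 (-0.05), TARS2 (0.01) and FARS2 (-0.09, SE 0.22) did not pass at 1 d.

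**Figure D4:**
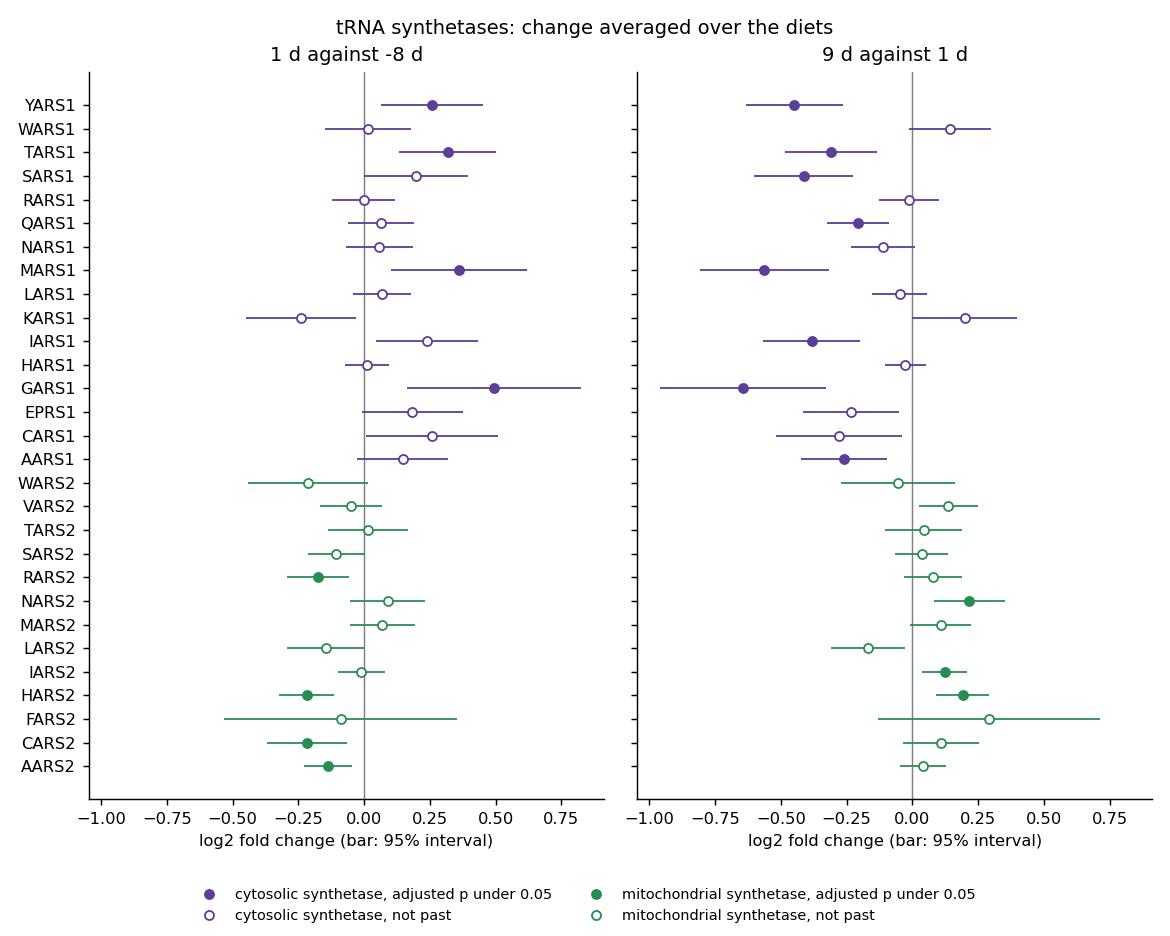
Log2 fold changes (x axis) of 16 cytosolic (purple) and 13 mitochondrial (green) synthetase genes for 1 d against -8 d (left) and 9 d against 1 d (right), with bars for the 95% interval of the fit and filled points for adjusted p under 0.05. Filled purple points lie to the right at 1 d (GARS1 0.49) and to the left at 9 d (GARS1 -0.64), and filled green points lie the other way (HARS2 -0.22 and 0.19).

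For 11 amino acids both the cytosolic and the mitochondrial synthetase were measured. The cytosolic change was the higher of the pair for 10 of 11 at 1 d against -8 d, with a median difference of 0.25. The widest gap was for cysteine, where CARS1 changed by 0.26 without passing (adjusted p = 0.136) and CARS2 by -0.22. A second CARS2 probe set went the other way, and the CARS2 call was lost when its probe sets were averaged. Asparagine was the exception, with NARS1 at 0.06 and NARS2 at 0.09. From 1 d to 9 d the cytosolic change was the higher for 2 of 11 (leucine and tryptophan), with a median difference of -0.33. Methionine had the widest gap there, with MARS1 at -0.56 and MARS2 at 0.11. Over the whole interval from -8 d to 9 d it was the higher for 5 of 11, with a median difference of -0.01.

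Across the 6 diet-by-day groups, each array was given the mean over a class of the log2 value minus its -8 d mean in the same diet. For the cytosolic synthetases this mean was 0.06 ± 0.29 (SD, n = 4) in CON 1 d, 0.24 ± 0.23 (n = 6) in HIGH 1 d, -0.13 ± 0.07 (n = 6) in CON 9 d and -0.02 ± 0.04 (n = 6) in HIGH 9 d. By construction it was 0 at -8 d, with an SD of 0.14 in each diet. It therefore leaves out any diet difference at -8 d. On that day HIGH minus CON averaged -0.13 over the 16 cytosolic synthetases, with 12 lower and 4 higher in HIGH. At 1 d HIGH minus CON averaged 0.06, with 9 higher and 7 lower. None of them passed for diet on either day. The 4 CON arrays of 1 d read -0.30, -0.04, 0.23 and 0.34, on either side of the -8 d mean, and the HIGH arrays of 1 d ran from 0.02 to 0.62, all above it. For the mitochondrial synthetases it was -0.08 ± 0.09 in CON 1 d, -0.10 ± 0.08 in HIGH 1 d, -0.03 ± 0.07 in CON 9 d and 0.02 ± 0.04 in HIGH 9 d.

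The cytosolic minus the mitochondrial mean was 0.13 ± 0.37 in CON 1 d and 0.35 ± 0.26 in HIGH 1 d, and -0.10 ± 0.13 and -0.04 ± 0.07 at 9 d. Within cows it went up from -8 d to 1 d in 7 of 8, and down from 1 d to 9 d in 9 of 10. In CON 1 d the SD exceeded the mean. The spread between arrays at 1 d was wider than at 9 d for the cytosolic genes in both diets.

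**Figure D5:**
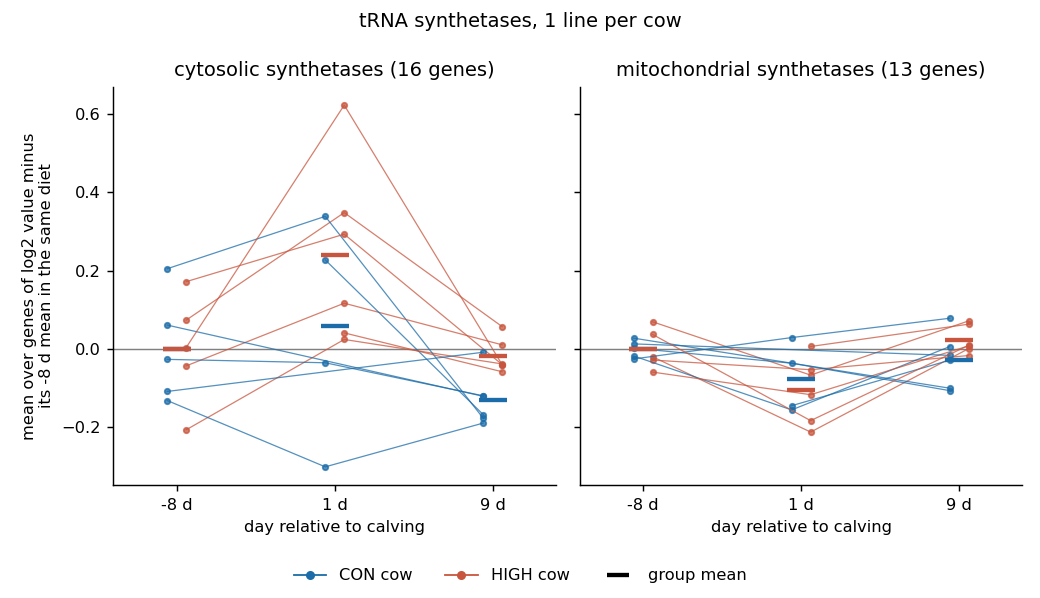
Mean over the class of log2 value minus its -8 d mean in the same diet (y axis) for 16 cytosolic (left) and 13 mitochondrial (right) synthetases by day relative to calving (x axis), with 1 line per cow, CON in blue and HIGH in red, and horizontal marks for group means. At 1 d the cytosolic means spread from -0.30 to 0.62 and the mitochondrial means from -0.21 to 0.03.

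Within a single diet fewer members passed. In CON, 2 rose and 3 fell at 1 d against -8 d: EIF4A1, EIF4G1, EIF4A2, EIF3E and EIF3H. These were 2.53% and 3.8% of members, beside 3.33% and 3.01% of probe sets and 4.8% and 3.23% of genes. In HIGH, 15 rose and 10 fell, or 19% and 12.7% of members, beside 8.7% and 7.88% of probe sets and 12.8% and 8.78% of genes. The HIGH rises included EIF2AK2 at 1.00, GARS1 at 0.75, MARS1 at 0.69, EIF4G1 at 0.67 and TARS1 at 0.49, and the falls included EIF3E at -0.72 and EIF4B at -0.58. At 9 d against -8 d, 1 rose and 0 fell in CON, namely NARS2 at 0.34. This was 1.27% and 0% of members, beside 1.05% and 0.787% of probe sets and 1.65% and 1% of genes. In HIGH 2 rose and 1 fell, namely EIF4G1 at 0.47, EIF4A1 at 0.38 and LARS2 at -0.34. The HIGH shares were 2.53% and 1.27% of members, beside 2.43% and 1.13% of probe sets and 3.87% and 1.26% of genes. At 9 d against 1 d, 1 rose and 0 fell in CON, EIF3E at 0.40. This was 1.27% and 0% of members, beside 1.39% and 1.37% of probe sets and 1.58% and 2.01% of genes. In HIGH 8 rose and 9 fell, or 10.1% and 11.4% of members, beside 4.43% and 4.71% of probe sets and 6.01% and 6.31% of genes. At an unadjusted p under 0.05, 3 members were higher and 13 lower in CON at 9 d against -8 d, and 6 were higher and 13 lower at 9 d against 1 d. For these unadjusted counts no share of all genes is given. CON 1 d had 4 arrays and HIGH 1 d had 6, and these counts are no test of a difference between the diets.

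The direct tests of diet called no member. By limma 0 of 79 passed for HIGH against CON on each of the 3 days, beside 0%, 0.00416% and 0% of all probe sets. For the difference between the diets in the change to 1 d and to 9 d, 0 passed, beside 0% and 0% of all probe sets. At an unadjusted p under 0.05 there were 5, 4 and 1 members for diet on the 3 days and 11 and 1 for diet by time. The share of all genes at that threshold is not given here, so these counts are no result about the members. EIF4G1 was lower in HIGH at -8 d (-0.30, SE 0.10, adjusted p = 1.00), where HIGH arrays read 8.86, 9.20, 9.23, 9.27 and 9.41 and CON arrays 9.28, 9.32, 9.47, 9.59 and 9.77, and its change to 9 d was higher in HIGH by 0.40 (SE 0.13, adjusted p = 1.00). These values share the -8 d arrays. At 1 d, LARS2 differed by 0.29 (adjusted p = 0.491), HARS2 by -0.20 (adjusted p = 0.526) and EIF3M by -0.24 (adjusted p = 0.576). At 9 d, EIF2AK3 differed by -0.46 (SE 0.21, adjusted p = 0.998). The change to 1 d was higher in HIGH for MARS1 by 0.66 (95% interval 0.14 to 1.18, adjusted p = 0.613) and for IARS1 by 0.45 (95% interval 0.06 to 0.83, adjusted p = 0.659). These intervals are wide against the changes themselves.

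The spread between arrays of a group was wider for some members than for others. This spread mixes differences between cows with differences between biopsies of the same cow. The SD within groups had a median of 0.161 over the members and ranged from 0.0607 for EEF1A1 to 0.583 for FARS2, the mitochondrial phenylalanine enzyme. FARS2 kept its level within some cows: a HIGH cow lay between 9.75 and 10.10 on its 3 days, and another HIGH cow between 8.36 and 8.55. Yet another HIGH cow ran from 7.63 to 8.98. EIF2AK2 (0.445), GARS1 (0.409) and EIF2AK3 (0.396) followed in spread. The large spread of these genes widens the error of each of their changes.

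Other genes of the pathway gave context, beside 16.5% of all genes that rose and 12.3% that fell at 1 d against -8 d. Of 13 measured genes for termination, recycling and mRNA binding, 5 rose and 2 fell at 1 d. HBS1L (0.39) and PELO (0.30), which rescue stalled ribosomes, and ETF1 (0.28) and GSPT1 (0.25), the release factors, rose, as did DENR (0.18), while PABPC1, the poly(A)-binding protein, fell by 0.21 and PDCD4, an inhibitor of eIF4A, by 0.20. Of 12 mitochondrial translation factors 5 rose and none fell at 1 d, among them MTFMT (0.34), which formylates the initiator tRNA, and the elongation factor GFM1 (0.28). AIMP1, a scaffold of the multi-synthetase complex, fell by 0.37 (SE 0.07, adjusted p = 0.000126). Of 10 amino acid response genes, 4 rose and 2 fell at 1 d. ATF4, the transcription factor translated when eIF2 is phosphorylated, rose by 0.70 (SE 0.15, adjusted p = 0.000955) and fell by 0.65 to 9 d, TRIB3 rose by 0.59 and ATF5 by 0.44, while DDIT4, an inhibitor of mTORC1, fell by 1.76 and PSAT1 by 0.32.

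Markers of other cells moved on the same days. Over all genes 16.5% rose and 12.3% fell at 1 d against -8 d. The shares were 7.79% and 5.08% at 9 d against -8 d, and 7.44% and 10% at 9 d against 1 d. Of 4 measured neutrophil markers, 4 rose at 1 d and 3 fell from 1 d to 9 d, and their mean ran from 6.24 to 7.27 at -8 d, 7.65 to 9.84 at 1 d and 6.67 to 8.39 at 9 d. Of 8 T and NK cell markers 5 fell at 1 d, with a range of 5.74 to 6.22 at -8 d and 5.61 to 6.18 at 1 d. Of 6 Kupffer cell markers 1 rose and 1 fell at 1 d, and no stellate or erythroid marker passed then (0 of 5 and 0 of 4). Of the 4 erythroid markers, 2 fell at 9 d: HBB changed by -1.59 against -8 d and -0.96 against 1 d, and HBA by -0.23 and -0.26. Of 3 markers of dividing cells, 3 rose at 9 d, with a range of 4.42 to 5.34 at -8 d and 4.98 to 7.78 at 9 d. The part of these cells in the changes of EIF2AK2, the eIF4 group or the synthetases was not tested.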

How the data were processed

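Liver RNA of 32 biopsies was measured on Affymetrix bovine arrays. Deposited were log2 RMA values, computed by the authors in Affymetrix Expression Console 1.1 per the submitters' processing notes. Settings of RMA are not given in the sources used here. Because RMA equalises the distributions of the arrays, each change is measured against the bulk of probe sets. Of 24128 probe sets, 112 controls were left out. The other 24016 were tested with limma 3.58.1 in R 4.3.3: 6 group means, cow as a random block (consensus correlation 0.138), empirical Bayes with a mean-variance trend, two-sided, with Benjamini-Hochberg adjustment per contrast and 26 residual degrees of freedom. Cow numbers in the labels pair the arrays; the replicate numbers of the titles do not. The script was also run on artificial values for the same groups, as a check of its code. That run gives no measure of how many changes of the sizes reported here would be found. Gene symbols came from the array annotation, 13292 probe sets having 1 symbol.

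Members, lists and tests were chosen with earlier results of these data known, so no list was tested as a set. Named were, per class and contrast, the 4 members with the largest change past the threshold and the same sign in both diets (or the 2 with the smallest p where fewer than 2 passed), 7 fixed genes, all synthetase pairs and, per diet contrast, the 3 with the smallest p. Other members were named after their values were seen. Alternatives were no block, a fixed block, only cows with all 3 days, no trend, array weights, a filter on low values, centring, averaging probe sets and leaving out each array. No sequences were printed. The number of arrays limits the precision.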

Additional observations from a re-analysis of the deposited data

Results flagged for a closer look

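Of 324 groups of 4 to 6 arrays, 306 for the 51 named genes and 18 for the synthetase class means, 14 (4.32%) held a value whose gap to its nearest neighbour was large for the range of the group, and chance alone gives about 1 in 20. At -8 d these were EIF2AK1 in HIGH (8.18, low), EIF4B in HIGH (10.68, low), NARS1 in CON (10.91, low) and WARS2 in CON (6.91, low). At 1 d they were EEF1A1 in HIGH (14.24, low), EIF2B2 in HIGH (8.47, high) and SARS1 in HIGH (10.36, high), of which the last 2 came from the same array, HIGH 1 d replicate 6. At 9 d they were EIF3M in CON (12.34, high) and in HIGH (12.21, high), IARS1 in HIGH (9.26, high), IARS2 in CON (9.95, low), MARS1 and TARS1 in CON (7.99 and 10.75, both high, from CON 9 d replicate 5) and YARS1 in HIGH (8.42, low). No explanation of these values was tested.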

How the results depend on the processing

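Of 29, 11 and 25 members called at 1 d against -8 d, 9 d against -8 d and 9 d against 1 d, 15, 3 and 12 kept their call in every other setting tried and without each array. No result reversed. The class means of the synthetases moved by less than the SD between arrays within groups, but that yardstick is too wide to show that they are stable. For the cytosolic class the SD was 0.29 in CON 1 d and 0.23 in HIGH 1 d, while its mean change at 1 d was 0.15. Counts of diet calls stayed at 0 in every setting tried. Without a replicate block for cow, 3 rose and 3 fell at 9 d against -8 d in place of 6 and 5, cytosolic rises at 1 d were 2, mitochondrial falls at 1 d were 2, mitochondrial rises were 1 at 9 d against -8 d and 1 at 9 d against 1 d, and CON 9 d against -8 d, HIGH 9 d against -8 d (lower) and CON 9 d against 1 d gave 0. With cow as a fixed replicate block, 1 cytosolic synthetase fell at 1 d, 1 rose to 9 d, mitochondrial rises at 9 d against -8 d were 1, and CON 9 d against 1 d gave 0 higher and 1 lower. In the 8 cows with all 3 days, 10 rose at 1 d, 2 rose and 2 fell at 9 d against -8 d, 7 rose and 9 fell at 9 d against 1 d, 5 rose in HIGH at 9 d against 1 d, cytosolic calls were 1 higher at 1 d and 4 lower to 9 d, mitochondrial rises were 1 at 9 d against -8 d and 0 to 9 d, and the CON rises and falls and the HIGH falls at 9 d against -8 d were 0. With array weights, 9 fell at 9 d against -8 d, 2 fell there in HIGH, 2 rose in CON from 1 d to 9 d, 2 cytosolic synthetases rose at 1 d and 1 fell at 9 d against -8 d, and 2 mitochondrial ones fell there. With the filter on low values, CON gave 4 rises at 1 d, 1 fall at 9 d against -8 d, and 3 rises and 3 falls from 1 d to 9 d, HIGH gave 5 rises at 9 d against -8 d, 1 cytosolic synthetase fell at 1 d and 0 mitochondrial ones fell at 9 d against -8 d. Centring gave 0 for the CON rise and the HIGH fall at 9 d against -8 d and 0 rises and 1 fall in CON from 1 d to 9 d, and no trend gave 1 fall there. Averaging all probe sets of a gene gave 4 rises in HIGH at 9 d against -8 d, 3 rises and 1 fall in CON from 1 d to 9 d, and 2 mitochondrial falls at 1 d. The cause of these shifts was not tested. Some of the settings use fewer arrays or genes.

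Leaving out each array in turn, with the cow correlation held, gave 10 to 19 rises and 10 to 14 falls at 1 d, 3 to 6 and 2 to 7 at 9 d against -8 d, and 9 to 11 and 9 to 18 from 1 d to 9 d. In CON the ranges were 1 to 3 and 1 to 5, 0 to 1 and 0 to 0, and 0 to 3 and 0 to 5 for the same comparisons, and in HIGH 11 to 17 and 8 to 11, 2 to 3 and 0 to 2, and 5 to 10 and 6 to 11. The lowest HIGH count of rises to 9 d, 5, was without HIGH 1 d replicate 2. Cytosolic synthetases gave 1 to 7 rises at 1 d and 5 to 10 falls to 9 d. Mitochondrial synthetases gave 2 to 4 falls at 1 d, 1 to 2 rises and 1 to 2 falls at 9 d against -8 d, and 1 to 3 rises and 0 to 1 falls to 9 d. Their 1 rise to 9 d was without CON 1 d replicate 1 or CON 9 d replicate 4.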
